A study of Mus musculus with 32 samples.

Results

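Rab GTPases are the small GTP-binding proteins that mark the membranes of the secretory and endocytic pathways. The members described here are all probes of an expression array whose gene symbol is Rab followed by a number, with at most 1 letter and 1 further digit. They were matched by symbol alone, and the set was chosen with earlier results of these data known. There were 84 such probes for 55 genes, out of 25697 probes for 18138 gene symbols. The RNA came from the frontal cortex (FCtx) of 32 female F1 mice, each measured on 1 array. The labels give the strain of every mouse as C57BL/6J x FVB/NJ F1, and the Methods of the study say that both directions of the cross were used. In the ethanol group, 20 mice had a bottle of 20% ethanol beside a bottle of water for 3 h a day over 20 days, and they were killed 20 h after the last session. The other 12 mice were untreated controls of the same strain. The study places the drinking in early adulthood. Exact ages are not given in the sources used here, and the ethanol each mouse drank is not tied to its array by the labels. Drinking was voluntary, so the group stands for chosen intake and not for a fixed dose.

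A Rab protein switches between a form bound to GDP and a form bound to GTP. Exchange factors load GTP and place the Rab on its membrane, effectors bind the GTP form and tether, move or fuse vesicles, and GTPase-activating proteins end the cycle, after which the Rab leaves the membrane again. Each Rab is bound to a compartment: Rab1 to traffic from the endoplasmic reticulum to the Golgi apparatus, Rab5 to early endosomes, Rab4, Rab11 and Rab14 to recycling, Rab7 to late endosomes and lysosomes, and Rab3 and Rab27 to the release of vesicles, which in neurons includes synaptic vesicles.

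An array probe is a stretch of 50 bases, and which stretch of a transcript it reads matters for several results below. The first 30 bases of these probes are therefore shown, with their start counted from the first base of the transcript named in the array's annotation. The 2 probes with the largest increases over all arrays were one for Rab6, the gene now called Rab6a, on chromosome 7 and one for Rab1b on chromosome 19. Capitals mark a run of 12 bases that both hold. It lies in the part of the coding sequence for the switch II region, a surface of the protein that changes shape with the bound nucleotide and is alike in many Rabs.
Rab6 base 677: agAGCGGTTCAGGAgcttgattcctagcta
Rab1b base 261: AGCGGTTCAGGAccatcacttccagctact
These 2 probes were the only ones of all 25697 that hold AGCGGTTCAGGA, which is 0.00778% of the array, and 0 probes hold its reverse complement. Among the 36 combinations of the 9 Rab probes that differed over all arrays, the next longest shared run was 7 bases. The other tested probes of the same genes, at bases 3156 and 3308 for Rab6 and base 1481 for Rab1b, read the transcript further on. None of them was called over all arrays, and those at bases 3308 and 1481 are shown.
Rab6 base 3308: cgtgcctgccagtgcttacgcttacgcttc
Rab1b base 1481: acctgcttctctggggaatgtgggtgcagc
Rab7 on chromosome 6 is shown because 2 of its probes overlap by 40 bases at the start of the transcript and the third lies far from them. Capitals mark the shared bases within the stretch shown.
Rab7 base 50: cggtgtttggGGCCGGGCAGCTCCGAGGAG
Rab7 base 60: GGCCGGGCAGCTCCGAGGAGcctgctggag
Rab7 base 1765: gatgcccttttgtcactatcctactcaaag
The probes of Rab5a on chromosome 17, Rab14 on chromosome 2 and Rab4a on chromosome 8 are shown because these genes carried the clearest differences within the chip that held both groups.
Rab5a base 1140: ggcaaaaaccatggagttgggagcatttag
Rab5a base 1318: tccatgtgaaagtgcaggggaacagctcat
Rab14 base 1049: tttcacctctgtctgttggaagcagtactt
Rab4a base 1046: cagcacagagccggtgtgacatgacagaac

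The 32 arrays lay on 4 chips of 8 arrays each. Chips 1 and 2 carried 16 ethanol-treated mice and chip 4 carried 8 controls. Chip 3 was the only one with both groups, with 4 ethanol-treated mice in the odd places (A, C, E, G) and 4 controls in the even places (B, D, F, H). A comparison over all arrays is therefore in large part a comparison between chips, and the comparison within chip 3 is also one of odd against even positions. Between 54 and 58 Rab probes per array were detected in ethanol-treated mice (detection p-value below 0.01 against negative control beads, median 56). In controls the count ran from 52 to 58 with a median of 57. The smallest count, and the lowest count over all probes, came from control C66 on chip 4. Its values are left out in turn beside the results that rest on them.

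Most Rab genes were detected in the FCtx. Of the 84 probes, 50 were detected on all 32 arrays, 4 on 24 to 31, 7 on 1 to 23 and 23 on none. Probes detected on at least 24 arrays were tested, 54 Rab probes of 40 genes among 10187 probes of 7926 symbols. Of the 15 genes without a tested probe, 10 had no probe detected on any array: Rab2b, Rab3c, Rab17, Rab19, Rab20, Rab25, Rab27b, Rab30, Rab37 and Rab38. The other 5, Rab5b, Rab32, Rab39, Rab40b and Rab43, were detected on 2 to 23 arrays by their best probe. A probe without a detected signal sets no limit on the transcript, since probes differ in how well they bind. Rab18, for example, had 1 probe detected on all arrays and 1 detected on none.

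**Figure D1:**
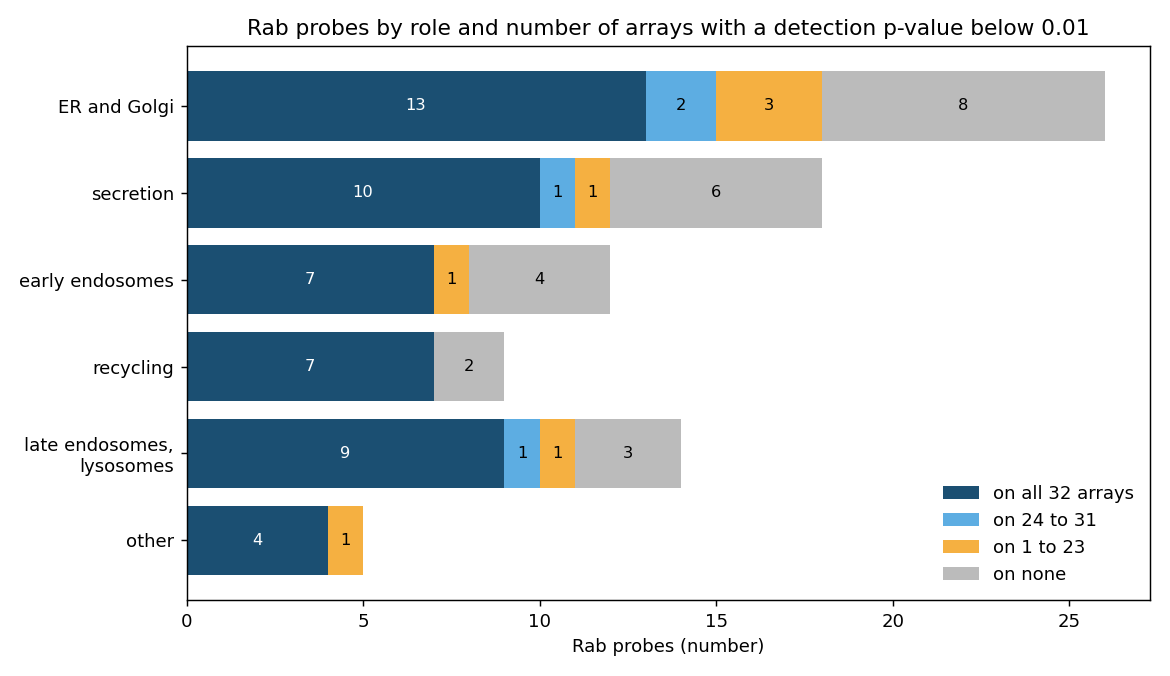
Number of Rab probes (x axis) by the compartment or role of their gene (y axis), split by the number of the 32 arrays on which the probe had a detection p-value below 0.01. In every role the probes detected on all arrays were the most numerous class, and the ER and Golgi group held 8 of the 23 probes detected on none.

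By role, 15 of 26 probes for traffic at the endoplasmic reticulum and Golgi were tested, 11 of 18 for regulated secretion and exocytosis, 7 of 12 for early endosomes, 7 of 9 for endosomal recycling, 10 of 14 for late endosomes, lysosomes and related organelles, and 4 of 5 for Rabs that are less well placed. The median signal of the tested probes before normalization lay between 193 and 9357 in controls and between 225 and 10842 in ethanol-treated mice, on the linear scale of the scanner. Rab3a, the Rab of synaptic vesicles, gave a median signal of 7768 in controls and 8788 in ethanol-treated mice. The 3 probes of Rab27b, which acts in the release of secretory granules, gave medians of 141, 146 and 150 in controls and 154, 159 and 174 in ethanol-treated mice, not detected on any array. Before normalization the median signal was higher in the ethanol group for 53 of the 54 tested Rab probes. The median signal of an array was higher there too (184 against 165), so the groups were compared only after normalization. On chip 3 this array signal was 179 in ethanol-treated mice and 178 in controls. It was 188 on chip 1 and 182 on chip 2, with ethanol-treated mice only, and 161 on chip 4, with controls only. The share of all tested probes with a higher median signal in the ethanol group is not reported here. Signals of different probes are not compared.

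The question of the main comparison is whether these transcripts differ between ethanol-treated mice and controls. Values were variance-stabilized and quantile-normalized to a log2 scale, and a probe counted as called when its false discovery rate (FDR) was under 10% and its difference 1.1-fold or more. Over all 32 arrays, 9 of the 54 tested Rab probes were called (16.7%), against a background of 16.9% of all tested probes. Of these, 8 were higher in ethanol-treated mice (14.8%, background 8.68%) and 1 was lower (1.85%, background 8.26%). At an FDR below 1%, 3 Rab probes were called (5.56%, background 8.22%). The share called was thus close to that of all probes. The median log2 difference of the Rab probes was 0.027, beside -0.0035 for all tested probes, and 30 of 54 were above 0. When arrays were scaled to a common median instead, 12 Rab probes were called higher and 0 lower, and 1206 of all probes higher and 137 lower, where the quantile-normalized values gave 884 and 841. The median SD between mice of a group was 0.124 in ethanol-treated mice and 0.131 in controls over the Rab probes. In tissue of mixed cells, fewer cells of a type and less RNA per cell cannot be told apart.

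Among the Rabs of the endoplasmic reticulum and Golgi, 4 of 15 tested probes rose, 0 fell and 11 did not pass. Of all tested probes 8.68% rose and 8.26% fell. Rab6, which directs traffic from the Golgi back to the endoplasmic reticulum, showed the largest difference of all Rab probes. Its probe at base 677 had a lowest value of 10.86, a median of 11.34 and a highest value of 11.65 in ethanol-treated mice, and 10.74, 10.93 and 11.41 in controls. The groups overlapped, and 19 of 20 ethanol-treated mice lay above the control median. The log2 difference was 0.36 ± 0.07 (SE, 1.28-fold, n = 20 and 12, limma with Benjamini-Hochberg adjusted p = 5.76e-04).

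The other 2 tested Rab6 probes did not pass. The probe at base 3156 differed by -0.02 ± 0.04 (SE, limma adjusted p = 0.759) and the one at base 3308 by -0.09 ± 0.04 (adjusted p = 0.142). Rab6b, a paralog found mainly in neurons, differed by 0.06 ± 0.04 (SE, limma adjusted p = 0.338). One of 3 Rab6 probes therefore carried the increase.

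Rab1b, which acts with Rab1 between the endoplasmic reticulum and the Golgi, showed the same split. At base 261 its values were 9.35, 9.68 and 9.87 (lowest, median, highest) in ethanol-treated mice and 9.08, 9.35 and 9.62 in controls, so 19 of 20 ethanol-treated mice lay above the control median while the ranges overlapped. The log2 difference was 0.30 ± 0.05 (SE, 1.23-fold, limma adjusted p = 2.59e-04). At base 1481 it was 0.03 ± 0.04 (SE, limma adjusted p = 0.716). Rab1, now called Rab1a, gave 0.09 ± 0.05 (SE, limma adjusted p = 0.228).

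Rab18, known from lipid droplets and the endoplasmic reticulum, ranged from 9.77 to 10.43 around a median of 10.01 in ethanol-treated mice and from 9.54 to 10.21 around 9.85 in controls. It rose by 0.16 ± 0.06 on the log2 scale (SE, limma adjusted p = 0.0573), and the ranges overlapped widely. With chip as a fixed block the difference was -0.03 and the call was lost (limma adjusted p = 0.898). Rab34, which acts at the Golgi and in the making of cilia, rose at base 1453 by 0.15 ± 0.06 (SE, limma adjusted p = 0.0664), with 7.87, 8.27 and 8.69 in ethanol-treated mice and 7.75, 8.11 and 8.48 in controls. Without control C66, the difference was 0.12 and the call was lost (limma adjusted p = 0.158). Its probe at base 823 differed by 0.06 ± 0.05 (SE, limma adjusted p = 0.489).

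Of the 24 tested probes in the 3 endosomal roles, 3 rose and 1 fell, where 8.68% and 8.26% of all tested probes did. Rab5a, the regulator of early endosome fusion, rose at base 1140, where values were 10.40, 10.69 and 10.997 in ethanol-treated mice and 9.90, 10.42 and 10.87 in controls. The control values were spread more widely than the ethanol values (SD 0.31 against 0.17). The log2 difference was 0.25 ± 0.08 (SE, limma adjusted p = 0.0211), and at base 1318 it was 0.11 ± 0.08 (SE, limma adjusted p = 0.411). With chip as a fixed block the difference at base 1140 was -0.24 and was not called (limma adjusted p = 0.217). Rab5c, its paralog, differed by -0.12 ± 0.04 (SE, limma adjusted p = 0.0451), past the FDR but under 1.1-fold.

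Among the recycling Rabs, Rab14 and Rab4a passed in opposite directions. Rab14, which moves cargo between endosomes and the Golgi, had values of 11.25, 11.62 and 11.92 in ethanol-treated mice and 11.06, 11.39 and 11.69 in controls, and rose by 0.24 ± 0.07 (SE, limma adjusted p = 0.0108). Rab4a, which returns cargo quickly from early endosomes to the surface, had values of 9.02, 9.42 and 9.64 in ethanol-treated mice and 9.46, 9.61 and 9.87 in controls. It fell by 0.22 on the log2 scale (SE 0.05, 1.16-fold, limma adjusted p = 0.00252), and 1 of 20 ethanol-treated mice lay above the control median. With median scaling the difference was -0.14 and the call was lost (limma adjusted p = 0.234). Rab4b differed by -0.10 ± 0.05 (SE, limma adjusted p = 0.133), Rab11a by 0.12 ± 0.07 (adjusted p = 0.23) and Rab11b by 0.08 ± 0.04 (adjusted p = 0.176).

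Of 10 tested probes for late endosomes and lysosomes, 1 rose (background 8.68%) and 9 did not pass. Rab7, which drives fusion of late endosomes with lysosomes, rose at base 50 by 0.20 ± 0.06 (SE, limma adjusted p = 0.0214), with 8.26, 8.41 and 8.77 in ethanol-treated mice and 7.67, 8.29 and 8.57 in controls. Its overlapping probe at base 60 gave a difference of like size with more spread, 0.21 ± 0.09 (SE, limma adjusted p = 0.12). The probe at base 1765 gave -0.12 ± 0.05 (SE, limma adjusted p = 0.124). Rab7l1, now called Rab29, differed by -0.08 ± 0.04 (SE, limma adjusted p = 0.166).

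Of the 11 tested probes for regulated secretion, 1 rose (background 8.68%) and 10 did not pass. Rab12, tied to both secretory and endosomal traffic, rose by 0.17 ± 0.05 (SE, limma adjusted p = 0.0195), with 9.07, 9.40 and 9.63 in ethanol-treated mice and 8.94, 9.26 and 9.48 in controls. With chip as a fixed block it had a difference of -0.03 and was not called (limma adjusted p = 0.899). Rab3a differed by 0.04 ± 0.04 (SE, limma adjusted p = 0.558), with values between 12.85 and 13.21 in ethanol-treated mice and between 12.90 and 13.07 in controls. None of the 4 probes in the less well placed group, of Rab23, Rab28 and Rab40c, was called.

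**Figure D2:**
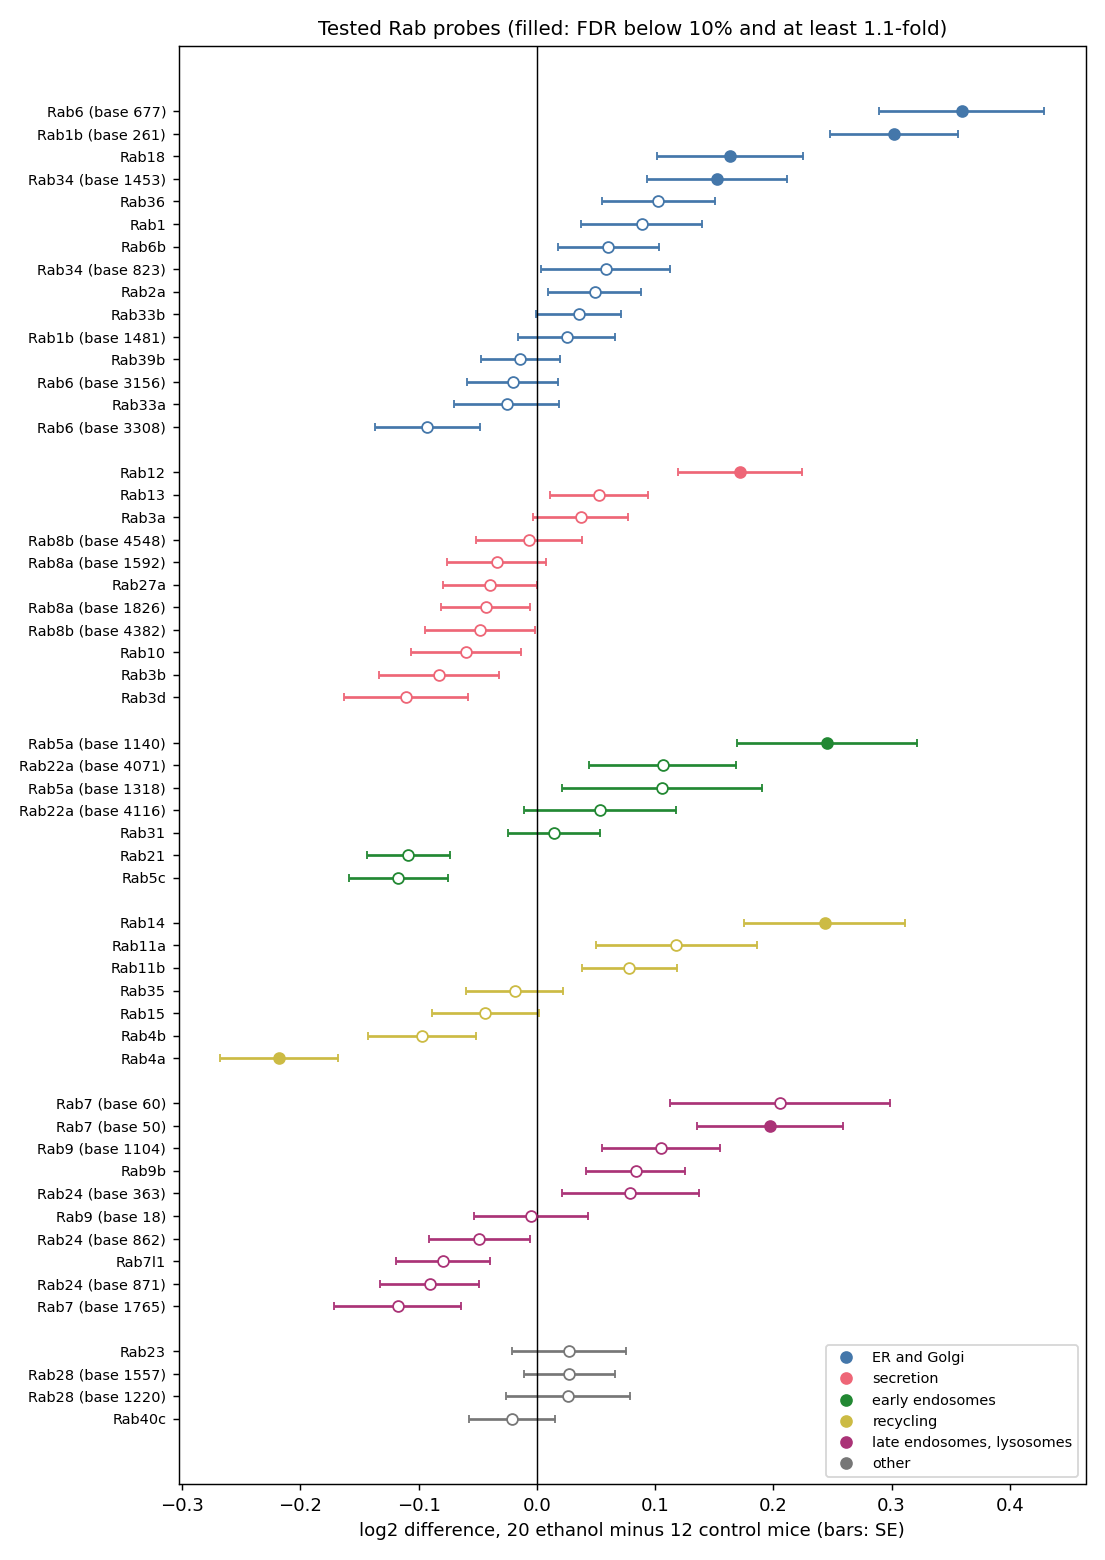
log2 difference between 20 ethanol-treated and 12 control mice (x axis, bars are SE) for the 54 tested Rab probes, grouped and coloured by role; the base is the start of the probe in its transcript where a gene has several. Filled points are the 9 called probes, 8 of them right of 0 and Rab4a left of it.

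Within chip 3, with 4 mice per group, the set of Rab probes that passed was not the one found over all arrays. There 13 of 54 were called (24.1%, background 16.3%), 8 higher (14.8%, background 7.92%) and 5 lower (9.26%, background 8.42%). With median scaling the split was 2 and 5. The median Rab difference was 0.0247, beside -7e-04 for all tested probes. The values of the 2 groups did not overlap for 11 Rab probes (20.4%), as for 15.2% of all tested probes. The count changed when a mouse was left out: it was 8 without A46, 7 without A47, 7 without C54 and 6 without C55. Leaving out a mouse also leaves fewer arrays, and the count over all probes without it is not reported here. Of the 13 probes, 3 (Rab14, Rab4a and Rab5a at base 1318) stayed called without any 1 of the 8 mice.

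Rab14 gave 11.87, 11.71, 11.60 and 11.56 in the 4 ethanol-treated mice and 11.49, 11.40, 11.41 and 11.10 in the 4 controls. All ethanol-treated mice lay above all controls, with a log2 difference of 0.34 ± 0.09 (SE, limma adjusted p = 0.0212). Rab4a gave 9.40, 9.36, 9.37 and 9.32 in ethanol-treated mice and 9.87, 9.60, 9.71 and 9.62 in controls. All ethanol-treated mice lay below all controls, and Rab4a fell by 0.34 on the log2 scale (SE 0.07, limma adjusted p = 0.00548).

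Rab6 at base 677 gave 11.59, 11.59, 11.46 and 11.34 in ethanol-treated mice against 11.41, 11.25, 11.08 and 11.18 in controls. The groups overlapped in 1 control mouse, and the probe rose by 0.26 ± 0.08 (SE, limma adjusted p = 0.043). Rab1b at base 261 gave 9.53, 9.52, 9.68 and 9.68 against 9.62, 9.23, 9.32 and 9.27, with 1 control mouse among the ethanol values and a difference of 0.24 ± 0.08 (SE, limma adjusted p = 0.073). Rab14, Rab6, Rab1b and Rab4a thus differed in the same direction here and over all arrays.

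Rab5a turned the other way. At base 1140 the ethanol-treated mice of chip 3 gave 10.40, 10.58, 10.61 and 10.65 and the controls 10.79, 10.87, 10.87 and 10.66. Every control lay above every ethanol-treated mouse, with a log2 difference of -0.24 ± 0.07 (SE, limma adjusted p = 0.0461). At base 1318 the difference was -0.26 ± 0.07 (SE, limma adjusted p = 0.019), again with no overlap. Rab7 was lower too, with -0.26 ± 0.10 at base 60 and -0.23 ± 0.07 at base 1765 (SE, limma adjusted p = 0.0908 and 0.0334). At base 50, 40 of whose bases the probe at base 60 shares, the difference was 0.01 ± 0.07 (SE, limma adjusted p = 0.947), so on this chip the overlapping Rab7 probes did not give the same result.

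The other 5 calls on chip 3 were higher in ethanol-treated mice. Rab28, found at the base of cilia, rose at base 1220 by 0.28 ± 0.08 (SE, limma adjusted p = 0.0293), with 10.92 to 11.10 in ethanol-treated mice and 10.57 to 10.90 in controls. Its probe at base 1557 differed by 0.07 ± 0.06 (SE, limma adjusted p = 0.506). Rab11b, of recycling endosomes, rose by 0.24 ± 0.07 (SE, limma adjusted p = 0.0442), and Rab36, a Golgi Rab, by 0.20 ± 0.07 (adjusted p = 0.0838). Rab8b, which carries cargo from the Golgi to the plasma membrane, rose with both of its probes, by 0.19 ± 0.06 at base 4382 and 0.19 ± 0.07 at base 4548 (SE, limma adjusted p = 0.0737 and 0.085). None of these 5 probes was called over all arrays.

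The 16 ethanol-treated mice of chips 1 and 2 share no array with chip 3, and neither do the 8 controls of chip 4. Between them 15 of 54 Rab probes were called (27.8%, background 26.4%), 9 higher (background 13.3%) and 6 lower (background 13.1%). With median scaling the split was 17 and 0, and 2171 and 98 over all probes. The higher ones were Rab5a at base 1140 (0.45 ± 0.07, SE) and at base 1318 (0.29 ± 0.09), Rab6 at base 677 (0.45 ± 0.07), Rab7 at bases 60 (0.40 ± 0.10) and 50 (0.29 ± 0.07), Rab1b at base 261 (0.32 ± 0.07), Rab12, Rab18 and Rab14. The lower ones were Rab3d (-0.19), Rab6 at base 3308 (-0.17), Rab4a (-0.17), Rab3b (-0.16), Rab7l1 (-0.14) and Rab8b at base 4382 (-0.14).

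Between chips and within chip 3, 31 of 54 Rab probes (57.4%) had the same sign, as had 50.9% of all tested probes. Of the 8 Rab probes called in both, 4 had the same sign (Rab14, Rab1b, Rab4a and Rab6) and 4 the opposite (both Rab5a probes, Rab7 at base 60 and Rab8b at base 4382). Of the 525 probes of the whole array called in both, 333 had the same sign and 192 the opposite. A test of the difference between both estimates passed an FDR of 10% for 12 Rab probes (22.2%, background 15.9%). The widest gaps were those of Rab5a at base 1140 (-0.69 ± 0.13, SE, limma adjusted p = 9.57e-04) and Rab7 at base 60 (-0.66 ± 0.19, adjusted p = 0.0212). For Rab14, Rab1b, Rab4a and Rab6 at base 677 the gap did not pass (limma adjusted p = 0.669, 0.735, 0.28 and 0.332), which does not show that the estimates are equal.

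**Figure D3:**
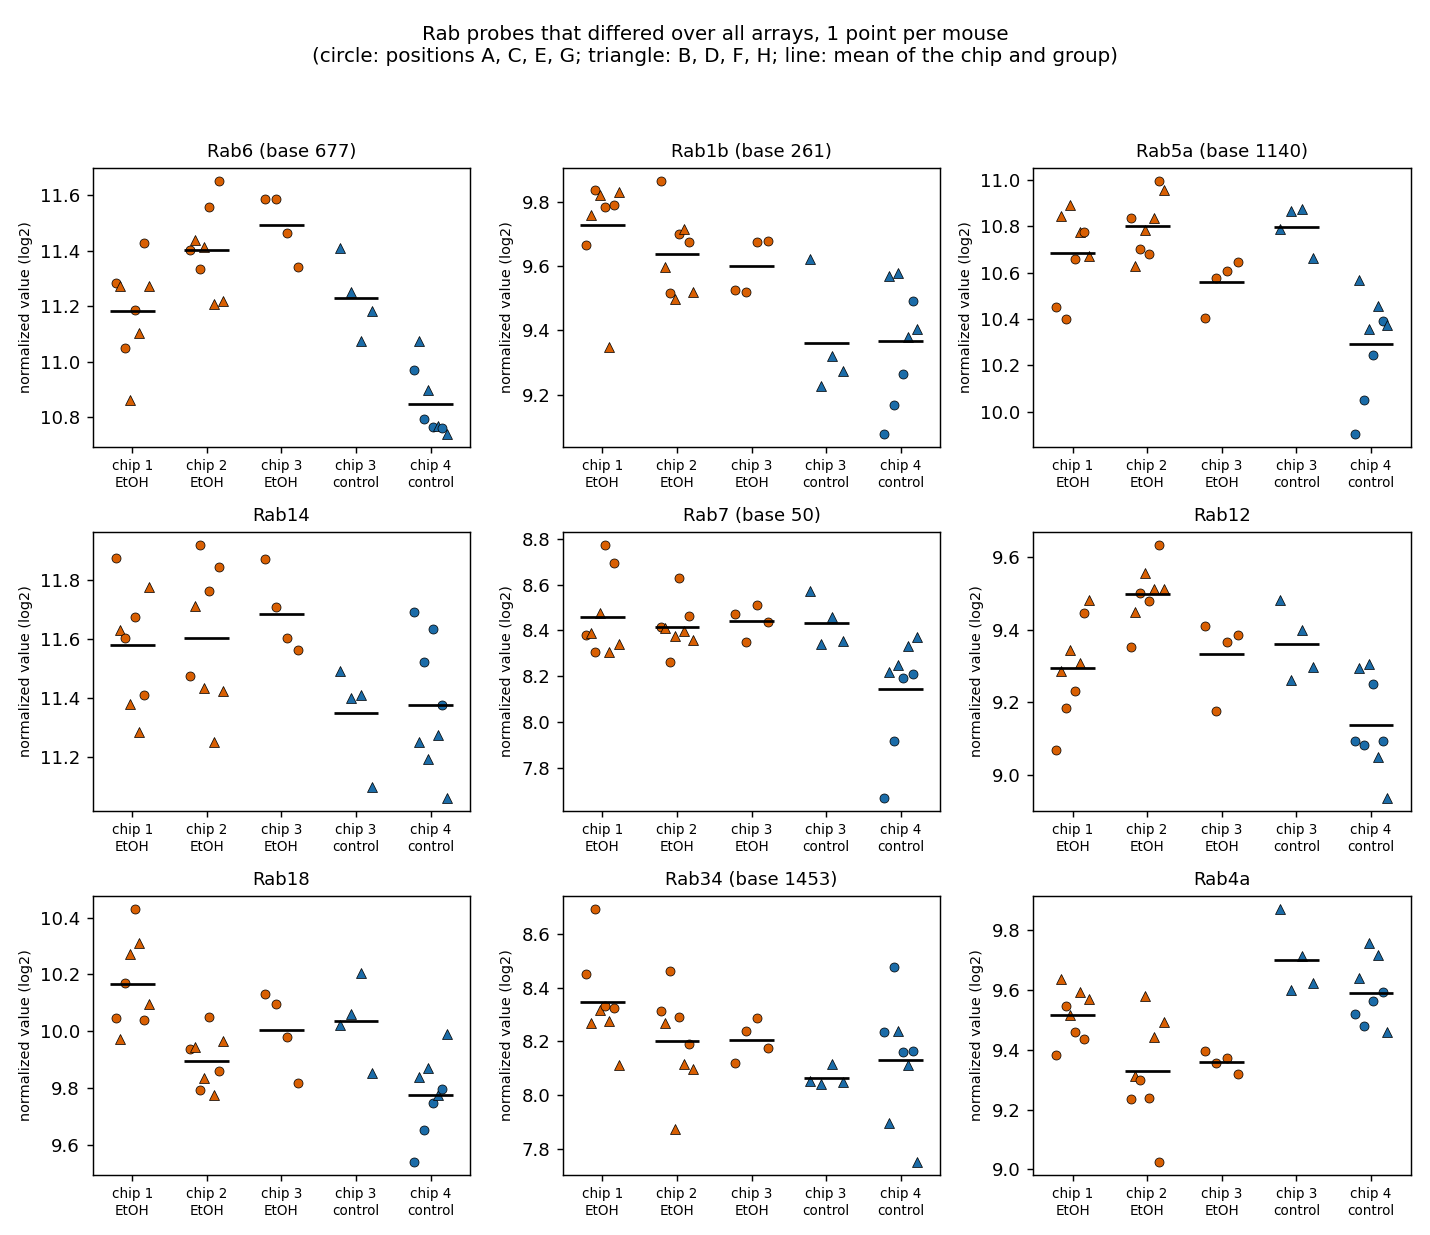
Normalized log2 value of each mouse (y axis) for the 9 Rab probes called over all arrays, by chip and group (x axis; EtOH is ethanol); lines are means, circles odd and triangles even positions. Rab4a was lower and Rab14 higher in ethanol-treated mice on chip 3 without overlap, while for Rab5a the controls of chip 3 lay above the ethanol-treated mice of that chip and the controls of chip 4, with a mean of 10.29, were the lowest group.

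**Figure D4:**
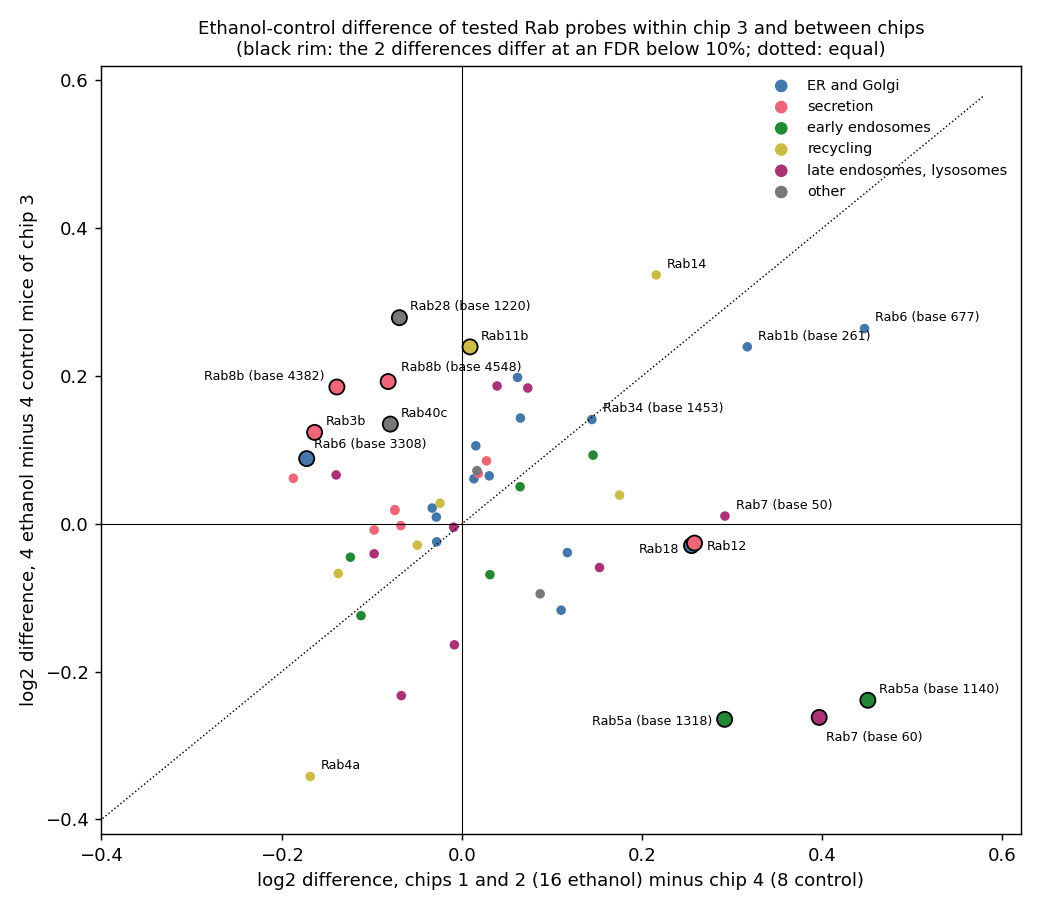
log2 difference of each tested Rab probe within chip 3 (y axis, 4 ethanol against 4 control mice) and between chips (x axis, 16 ethanol mice of chips 1 and 2 against 8 controls of chip 4), coloured by role. Black rims mark the 12 probes whose 2 differences differ at an FDR below 10%; both Rab5a probes and Rab7 at base 60 sit far to the right but below 0, and Rab6 at base 677, Rab1b at base 261 and Rab14 lie above 0 on both axes.

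Since odd and even positions separate the groups on chip 3, the same contrast was measured on chips 1, 2 and 4, where treatment does not vary within a chip. Even against odd positions differed at an FDR below 10% for 14 of 54 Rab probes (25.9%, background 20.1%). At even positions 9 of them were higher (background 9.96%) and 5 lower (background 10.2%). Rab14 was lower at even positions, with an even-minus-odd difference of -0.26 ± 0.07 (SE, limma adjusted p = 0.0109), and Rab4a was higher there by 0.16 ± 0.04 (adjusted p = 0.0148). Rab5a at base 1140 was higher at even positions by 0.17 ± 0.06 (SE, limma adjusted p = 0.0538), Rab7 at base 1765 by 0.21 ± 0.05 (adjusted p = 0.00979) and Rab7 at base 60 by 0.22 ± 0.09 (adjusted p = 0.0869). These 5 were also called on chip 3, and in each the odd positions differed from the even ones in the direction in which ethanol differed from control on chip 3.

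Of the 13 Rab probes called on chip 3, 12 (92.3%) had an odd-minus-even difference of the same sign on the other chips, Rab1b at base 261 being the exception with 0.02 ± 0.06 (SE) for even minus odd. Over all tested probes the share was 86.8% (1445 of 1665), and of the 612 called in both, 607 had the same sign. On chip 3 alone, position and treatment cannot be told apart. A fit with chip as a fixed block gives the chip 3 differences again, with the spread taken over all chips, and is no separate check on them. In it, 3 Rab probes were called (background 6.18%): Rab4a lower, Rab11b and Rab28 at base 1220 higher. Of the 9 probes called over all arrays, Rab4a was thus the only one also called with the block, and Rab7 at base 50 had 0.01 there (limma adjusted p = 0.973). With chip and position together, 0 were called by limma (background 0.0687%), and 7 had an unadjusted p below 0.05. In that fit Rab1b at base 261 had a difference of 0.26 ± 0.12 (SE), Rab6 at base 677 one of 0.19 ± 0.11 and Rab4a one of -0.18 ± 0.08, whereas Rab14 had 0.08 ± 0.13 and Rab5a at base 1140 -0.07 ± 0.11 (limma adjusted p = 0.492, 0.631, 0.487, 0.896 and 0.896).

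For 11 Rab genes more than 1 probe was tested. The increases of Rab6, Rab1b and Rab7 were carried by the probes nearest the start of the transcript. Rab5a too was called over all arrays at its earlier probe (0.25 at base 1140, 0.11 at base 1318). Rab34 went the other way and was called at its later probe (0.15 at base 1453, 0.06 at base 823). Between chips, the probe near the start exceeded the one near the end by 0.62 on the log2 scale for Rab6, 0.30 for Rab1b and 0.36 for Rab7, as differences of ethanol-control differences. For Rab9, which returns cargo from late endosomes to the Golgi, with probes at bases 18 and 1104, it was -0.08. Within chip 3 the same quantities were 0.18, 0.18, 0.24 and -0.19. For Rab7 the probe at base 50 was set against the one at base 1765. On chip 3 the other Rab7 probe near the start, at base 60, differed by -0.26, beside -0.23 at base 1765.

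The same was measured for all 341 transcripts with tested probes at least 1000 bases apart. The probe nearer the start had the higher ethanol-control difference in 75.1% of them over all arrays, in 80.9% between chips and in 45.7% within chip 3. Without control C66, the share between chips was 82.4%. Per array, the mean log2 value of the probes near the start minus that of the probes near the end was -1.44 ± 0.09 (SD, n = 8) in the controls of chip 4, -1.31 ± 0.04 (n = 4) in the controls of chip 3 and -1.29 ± 0.05 (n = 20) in ethanol-treated mice. The controls of chip 4 thus had the lowest mean of this measure, which does not tell low values near the start from high values near the end. Of the start-near probes 136 were called higher over all arrays, and of the end-near probes 31. Whether this measure has a part in the between-chip differences of Rab6, Rab1b and Rab7 was not tested.

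**Figure D5:**
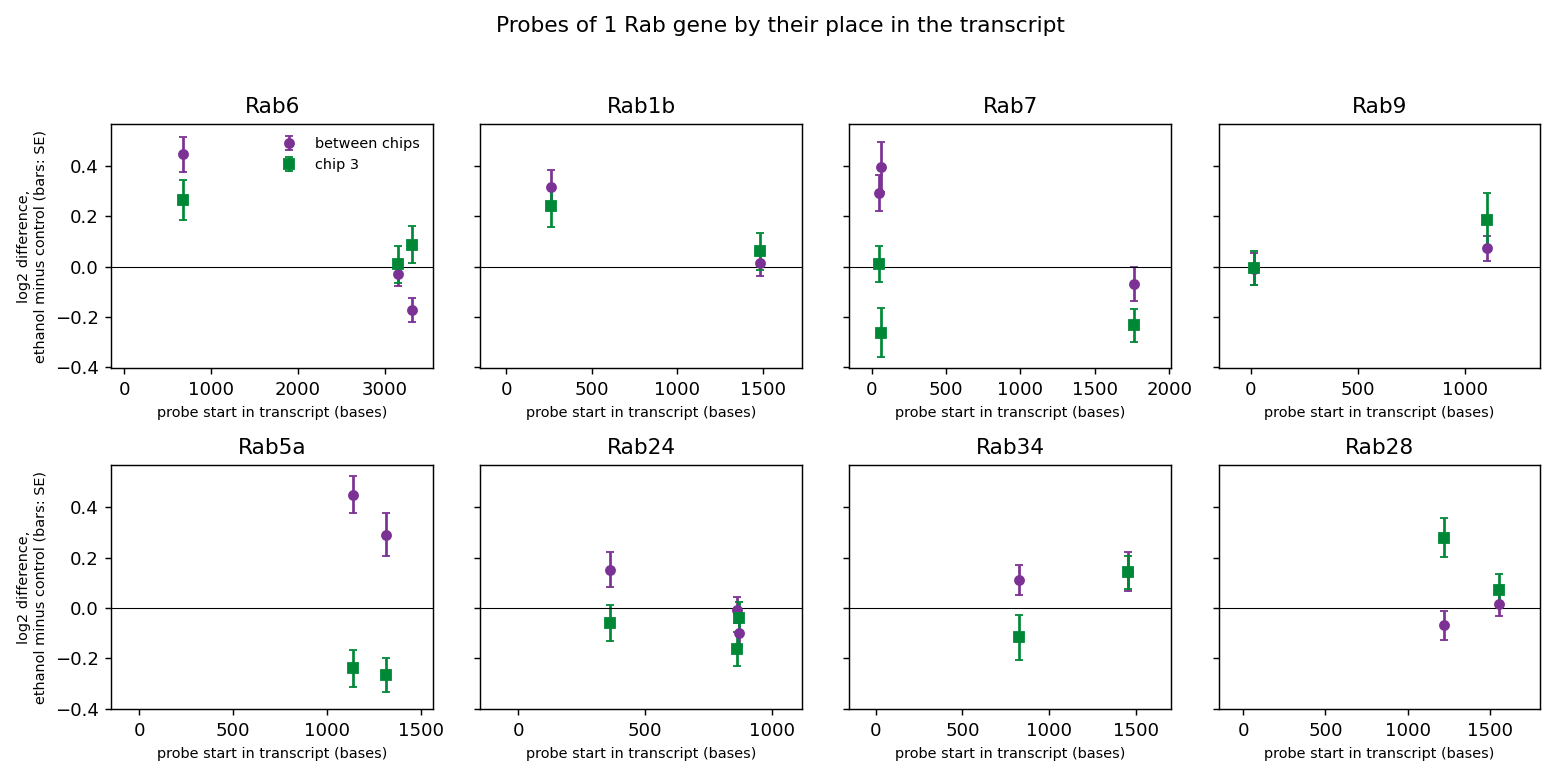
Ethanol-control log2 difference (y axis, bars are SE) of each tested probe of 8 Rab genes against the start of the probe in its transcript (x axis, bases), between chips (circles, 16 against 8 mice) and within chip 3 (squares, 4 against 4). For Rab6, Rab1b and Rab7 the between-chip difference is above 0.25 near the start and close to or below 0 near the end, while both Rab5a probes are above 0 between chips and below 0 within chip 3.

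The proteins that run the Rab cycle were read from a list of 110 genes on the array, of which 82 had a tested probe. Of their 116 tested probes 26 were called over all arrays (22.4%, background 16.9%), and 18 within chip 3 (15.5%, background 16.3%). Over all arrays 17 were higher and 9 lower (23 and 3 with median scaling), where 8.68% and 8.26% of all tested probes were. The same background holds for the counts by kind that follow. Of 30 tested probes for exchange factors, 4 were higher and 1 lower. Madd, the exchange factor of Rab3, rose by 0.29 ± 0.07 (SE, limma adjusted p = 0.00367) and differed by 0.23 ± 0.09 within chip 3 (adjusted p = 0.128). Of 46 for effectors, 7 were higher and 4 lower. Rph3a, or rabphilin, which binds Rab3 on synaptic vesicles, fell by 0.30 on the log2 scale over all arrays (SE 0.06, limma adjusted p = 8.99e-04) and by 0.46 within chip 3 (SE 0.08, adjusted p = 0.00224). Of 28 for GTPase-activating proteins, 2 were higher and 4 lower. Tbc1d9 fell by 0.30 and within chip 3 by 0.40 (limma adjusted p = 9.68e-04 and 0.00451), and Sgsm2 by 0.29 and 0.41 (adjusted p = 0.00231 and 0.00733). Sgsm1 fell by 0.27 over all arrays (limma adjusted p = 0.00803) and differed by -0.08 within chip 3 (adjusted p = 0.638). The even-minus-odd difference on the other chips was 0.28 for Rph3a, 0.16 for Tbc1d9 and 0.09 for Sgsm2 (limma adjusted p = 0.00151, 0.0826 and 0.371).

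Some markers of other cells and regions differed between the groups of chip 3, which are also its odd and even positions. Of all tested probes 7.92% were called higher on that chip and 8.42% lower. Of the 6 tested olfactory bulb markers, from a dissection meant to exclude the bulb, 5 were called higher in ethanol-treated mice of chip 3. The 6 had a median difference of 0.75, and their mean level ran from 9.01 to 9.26 in these mice and from 7.99 to 8.72 in the controls of that chip. Of 10 tested oligodendrocyte markers, 7 were called lower. The 10 had a median difference of -0.37 and mean levels of 10.02 to 10.22 against 10.14 to 10.88. Of 9 astrocyte markers, 3 were called higher. Over all arrays 0 of 6, 1 of 10 (lower) and 2 of 9 (higher) were called, where 8.68% of all tested probes were higher and 8.26% lower. The even-minus-odd difference on the other chips had a median of -0.47 for the olfactory bulb list and 0.15 for the oligodendrocyte list. The part of these cells in the Rab differences of chip 3 was not tested. Of the 8 neuron markers on the array, 5 were tested. Of these, 1 was called lower over all arrays and 1 was called lower on chip 3. The mean level of the 5 ran from 12.15 to 12.46 in ethanol-treated mice and from 12.19 to 12.50 in controls. On chip 3 it ran from 12.28 to 12.37 against 12.35 to 12.50. Snap25 and Nefl were among those that did not pass the detection filter.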

How the data were processed

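Biotin-labelled cRNA amplified from total RNA was hybridized to Illumina MouseRef-8 v2.0 BeadChips, 1 array per mouse, and mice were grouped by the condition in their labels. The authors deposited a table that is not normalized: the intensity of each probe (mean signal of its beads), a detection p-value and, as other values, how many beads were read and the standard error of their mean. The bead summary software and its background step are not given in the sources used here. The Methods name lumi for variance stabilization and quantile normalization and limma for the test. Here a variance-stabilizing transform after that of lumi, with the bead SD taken as linear in the signal, was computed from those columns in R 4.3.3 (package data.table, version 1.17.8), followed by quantile normalization to log2 values, limma 3.58.1 (lmFit, eBayes) and Benjamini-Hochberg adjustment over the 10187 probes detected on at least 24 of 32 arrays. The script was also tested on simulated data. Figures were made in Python 3.11.15 with matplotlib 3.10.9. The number of arrays limits the precision: a permutation test on chip 3 could not go below p = 0.0286, two-sided. The labels do not tell whether mice share a litter, so p-values measure the spread between these mice.

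Members were matched by the symbol column of the table, and symbols now in use come from RefSeq. Genome coordinates of the table mix builds and are not printed. Paralogs may share sequence, and probes were taken as annotated. The members, roles and lists were chosen with earlier results of these data known. Named with values were probes called over all arrays or on chip 3, the other tested probes and same-number paralogs of genes called over all arrays, Rab3a, Rab5a, Rab7, Rab11a and Rab27b, and the 4 largest called increases and decreases of the cycle genes. Results of some cycle genes and markers are not reported here. Marker lists held neurons, astrocytes, oligodendrocytes, microglia, olfactory bulb, striatum, and blood and vessels; of the lists not described in the report, microglia had 0 of 11 tested markers called over all arrays and 1 lower on chip 3, striatum 0 of 4 and 1 lower, and blood and vessels 1 of 7 higher and 2 higher. Alternatives were log2 of the signal, normexp with an offset of 16, median scaling, other detection filters, array weights, chip or position terms, other thresholds, leaving out C66 or each array of chip 3, and, chosen after seeing the data, a transform with a background variance.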

Additional observations from a re-analysis of the deposited data

Results flagged for a closer look

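Within the groups of 4 mice on chip 3, 56 tests over 28 named probes asked whether the outermost mouse stood apart from the other 3, where chance gives about 1 in 20. There were 3 such values, from 2 mice. Control C55 was highest for Rab34 at base 1453, with 8.117 where the next control had 8.051. Ethanol-treated mouse A49 was lowest for Rab1, with 8.925 where the next had 9.156. Control C55 was lowest for Rab6 at base 3156, with 8.97 where the next had 9.236.

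The ethanol-control difference within chip 3 was not the same as that between chips for 12 Rab probes (limma, FDR below 10%). The chip 3 difference minus the between-chip difference was below 0 for Rab5a at base 1140 (-0.6894), Rab7 at base 60 (-0.6585), Rab5a at base 1318 (-0.5561), Rab18 (-0.2843) and Rab12 (-0.2841). It was above 0 for Rab28 at base 1220 (0.3483), Rab8b at bases 4382 (0.3239) and 4548 (0.2745), Rab3b (0.2873), Rab6 at base 3308 (0.2605), Rab11b (0.2304) and Rab40c (0.2144). Rab3b and Rab40c were named after their values were seen. Chip, position and treatment cannot be told apart in these gaps.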

How the results depend on the processing

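No paired analysis was possible because the mouse numbers of the 2 groups are all different and no label ties an ethanol-treated mouse to a control. With log2 of the signal, array weights, probes detected on all arrays, the transform with a background variance or without C66, every count of Rab probes called stayed within 1.5 times the reported one. With normexp, 6 Rab probes were called on chip 3. With median scaling, 1 Rab probe was called at an FDR below 1%, the median Rab difference was 0.0833 (0.056 for all probes) and 0.0152 on chip 3, 7 were called on chip 3 (2 higher, 5 lower; 432 and 794 of all probes), 6 differed between chip 3 and between chips, and 0 by position, where limma's calls over all probes were 2.14%; Rab4a then had -0.1409 and was not called (limma adjusted p = 0.234). Without a detection filter, 8 differed by position. With chip as a fixed block, where the differences are those of chip 3, limma called 3 Rab probes (5.56%) and 10 cycle probes (8.62%, background 6.18%). At an FDR below 1% it called 0 Rab probes. Rab12 (-0.0260), Rab18 (-0.0294) and Rab5a at base 1140 (-0.2387) were negative there, as on chip 3. Chip as a random block left 4 Rab probes called (7.41%, background 9.24%), and 1 at an FDR below 1%. With position, 11 Rab probes were called (20.4%, background 17.3%) and 5 passed an FDR of 1%. With chip and position, 0 Rab probes were called at either threshold by limma and 0 cycle probes, and Rab34 at base 1453 (-0.0898) and Rab5a at base 1140 (-0.0675) turned negative. Without a fold limit, 41 cycle probes were called; at an FDR below 1%, 1 Rab probe was called on chip 3 and 7 between chips. Without each array of chip 3 in turn, its calls ranged from 6 to 12 and its median from 0.0244 to 0.0399. Where no background stands beside a count in this section, the count over all probes in that setting is not reported here. The causes of these changes were not tested.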
